A study of Schizosaccharomyces pombe with 4 samples.

Results

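Proteins and membrane move between the endoplasmic reticulum, the Golgi, the vacuole and the cell surface in small vesicles. The genes described here encode the machinery of that traffic in the fission yeast Schizosaccharomyces pombe, and their messenger RNA was compared between a red2 deletion strain and wild type. Members were the array genes whose deposited description holds a word for a vesicle coat (coatomer, clathrin, COPII), a membrane fusion protein (SNARE, syntaxin, synaptobrevin), the exocyst, the Golgi or vacuolar sorting, without the sugar transferases of the Golgi. There were 71 such array genes among 4997. By their words they fell into 7 classes, with 7 for the COPI coat, 6 for the COPII coat, 8 for clathrin, 8 for other Golgi functions, 21 for vacuolar protein sorting, 17 for SNAREs and 4 for the exocyst.

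As background, a coat protein complex bends a patch of membrane into a bud and selects its cargo. COPII coats form vesicles that leave the endoplasmic reticulum for the Golgi, COPI coats (coatomer) carry material back from the Golgi, and clathrin with its adaptors forms vesicles at the late Golgi and the plasma membrane. Tethering complexes such as TRAPP and the exocyst hold an arriving vesicle, and paired SNAREs on vesicle and target then fuse the membranes. Vacuolar protein sorting proteins, known mostly from budding yeast, direct cargo to the vacuole, the lysosome-like organelle of yeasts.

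The 2 groups were wild type (strain FY12806) and red2∆ (strain SP744), each with 2 arrays, and the labels name no further allele or agent. Both grew logarithmically at 30 °C in rich YEA medium, which holds yeast extract, 3% glucose and 75 mg/L adenine. Total RNA was the starting material, labelled with a single dye, Cy3, for NimbleGen arrays that cover genes of the 3 chromosomes. Values are log2 of the deposited intensity, averaged over the 2 blocks of values that each array gene has, and a log2 fold change is deletion minus wild type.

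The median intensity per array ran from 21231.7 to 22158.1. Arrays correlated across genes with r = 0.9964 to 0.9975 within a group and with r = 0.9338 to 0.9447 between groups. One label of deletion replicate 2 names red3 where its title and strain name red2, and that array stands in the deletion group. The table of gene names holds no red2, so the deleted gene was not checked on the arrays. The array codes in the column headers start with one number for both wild-type arrays and another for both deletion arrays. What the number stands for is not stated, and an effect tied to it cannot be told apart from that of the genotype. Whether the 2 arrays of a group stem from separate cultures is not stated in the labels, and the p-values may therefore measure technical spread alone. With 4 arrays the precision is limited. A lower level here may be fewer cells with the message or less of it per cell, and bulk RNA does not tell these apart.

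Members of every class but the exocyst and the COPII coat moved in both directions. Of the 71 members, 21 rose and 25 fell in the deletion (two-sided limma test, p-values adjusted by Benjamini and Hochberg over all 4997 genes, threshold 0.05), and 25 did not pass. Among all array genes 34.0% rose and 29.8% fell, against 29.6% and 35.2% of the members, so the members' shares lie within a few percentage points of the background. The median log2 fold change was 0.02 for the members and 0.01 for all array genes. The groups did not overlap for 30 members with the deletion above and 30 with the deletion below, and all array genes gave 43.4% and 41.2%, close to the members' 42.3% in either direction. Changes of at least 1.5-fold that passed were found for 5 members upward (7.04%) and 10 downward (14.1%), where all array genes gave 10.0% and 9.81%. Of the 71 members, 1 rose and 2 fell by at least 2-fold without overlap. Among all 4997 array genes 136 rose (2.72%) and 127 fell (2.54%) by that much. So few members give no basis to set their shares apart from these.

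**Figure D1:**
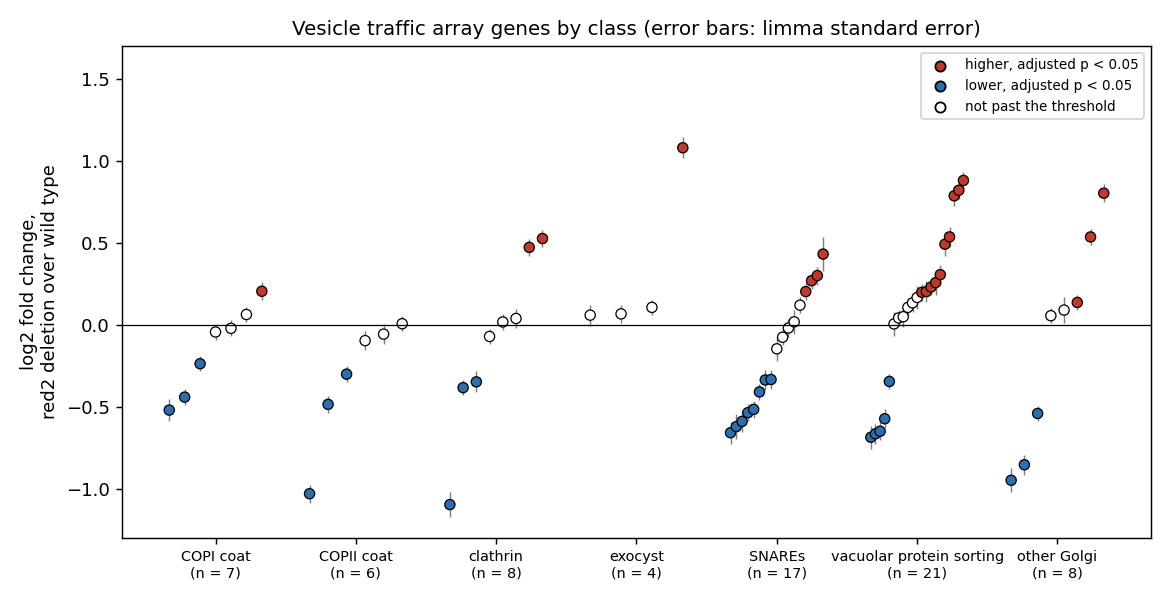
Each point is 1 of the 71 array genes, placed by class, with its log2 fold change (red2 deletion over wild type) on the vertical axis and limma's standard error as the bar (2 arrays per group). Red points rose, blue points fell and open points did not pass; every class but the exocyst holds members that fell, and the COPII class holds none that rose.

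The COPII coat and its cargo proteins came first on the route out of the endoplasmic reticulum. Of 6 members 3 fell (50%, against 29.8% of all array genes), 0 rose (against 34.0%) and 3 did not pass. The median log2 fold change was -0.20. The 3 that fell were 633, 784 and 796 bp long. Another short member, of 813 bp (chromosome II, 1889590 to 1890402), did not pass (-0.10 ± 0.06, limma adjusted p = 0.184). All array genes fell in 47.8% up to 1200 bp and in 11.4% over that length. A component of COPII-coated vesicles (chromosome I, 1596237 to 1597020) measured 15.05 and 15.14 on the wild-type arrays against 14.05 and 14.07 on the deletion arrays. Both deletion arrays lay well below both wild-type arrays. That is a 2.04-fold fall, with a log2 fold change of -1.03 and a standard error of 0.05 over 2 arrays per group (limma adjusted p = 6.49e-05). An emp24-like protein (chromosome I, 1759949 to 1760581), of a family of small membrane proteins that take cargo into COPII vesicles, stood at 14.79 and 14.71 on the wild-type arrays against 14.29 and 14.24 on the deletion arrays. It fell by 0.49 ± 0.05 (adjusted p = 0.000587). A further component with a possible part in cargo sorting (chromosome III, 930591 to 931386) fell by 0.30 ± 0.05.

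The long coat genes of the COPII class did not pass the test. By their words, homologues of the coat protein Sec23 fell outside the members. One (chromosome III, 634309 to 636761) rose by 0.25 ± 0.05 (limma adjusted p = 0.0064). Another (chromosome II, 3137691 to 3140247) stood at -0.09 ± 0.05 and did not pass. The WD repeat coat component (chromosome II, 1354212 to 1357886) read 15.89 and 15.88 on the wild-type arrays against 15.89 and 15.88 on the deletion arrays, a log2 fold change of 0.01 ± 0.05. The Sec24 homologue (sec24, chromosome I, 4760956 to 4763736), a coat subunit that binds cargo, read 15.76 and 15.81 against 15.67 and 15.79 (-0.06 ± 0.06). Both lie close to the highest level of any array gene on any array, 15.98 on the log2 scale. Of the members, 6 had a mean level within 0.5 of that value.

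In the coatomer, the coat of return traffic from the Golgi, the small subunits fell and most large ones did not pass. Of 7 members 1 rose (14.3%, against 34.0% of all array genes), 3 fell (42.9%, against 29.8%) and 3 did not pass. All array genes fell in 47.8% up to 1200 bp and in 11.4% over that length. The zeta subunit (chromosome III, 2097744 to 2098316) stood at 15.52 and 15.43 on the wild-type arrays against 14.88 and 15.02 on the deletion arrays. It fell by 0.52 ± 0.07 (adjusted p = 0.00107), a 1.44-fold difference with no overlap. The epsilon subunit (chromosome II, 2286584 to 2287494) stood at 15.33 and 15.32 on the wild-type arrays against 14.86 and 14.91 on the deletion arrays, and fell by 0.44 ± 0.05 (adjusted p = 0.000602).

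The larger subunits gave log2 fold changes of -0.04 ± 0.05 for alpha (chromosome II, 621588 to 625211) and -0.02 ± 0.05 for gamma (chromosome I, 1513874 to 1516694). The mean levels of alpha and gamma lay within 0.5 of the highest value on the arrays. The beta' subunit (chromosome II, 4313646 to 4316098) stood at 0.06 ± 0.05. The beta subunit (chromosome II, 948814 to 951636) was the one member of the complex that rose. Its levels were 15.29 and 15.31 on the wild-type arrays against 15.55 and 15.46 on the deletion arrays, a rise of 0.20 ± 0.05 (adjusted p = 0.0176). That rise did not pass without wild_type replicate 1 (adjusted p = 0.103), without wild_type replicate 2 (0.0718), with each array centred on its median (0.052) or with the first block alone (0.192). It stood at -0.11 (0.103) with the length trend removed, that is, with each array corrected for a smooth trend of its values with gene length. A short array gene inside the beta' gene, described as a coatomer subunit, fell by 0.24 ± 0.05; its call was lost with the second block alone (adjusted p = 0.0666) and, with the sign turned, with the length trend removed (0.01, adjusted p = 0.83).

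Among 8 other Golgi genes, 3 rose (37.5%, against 34.0% of all array genes), 3 fell (37.5%, against 29.8%) and 2 did not pass. A homologue of budding yeast BET3 (chromosome II, 3437650 to 3438630), where BET3 is a subunit of the TRAPP tether for vesicles from the endoplasmic reticulum, read 11.46 and 11.50 on the wild-type arrays against 12.32 and 12.24 on the deletion arrays. Its groups did not overlap, and it rose 1.74-fold, by 0.80 ± 0.05 (adjusted p = 0.000124). Its mean level, 11.88, was the lowest of all members, and a filter on the dimmest 25% of array genes left it out. The other BET3 homologue (bet3, chromosome I, 2697076 to 2697774), whose description also names SNAREs, did not pass, with 14.27 and 14.17 on the wild-type arrays against 14.17 and 14.22 on the deletion arrays. The gene tied to the symbol vps52 (chromosome II, 2718717 to 2720243), for a subunit of the Vps52-Vps53-Vps54 complex that receives vesicles at the late Golgi, read 13.29 and 13.27 on the wild-type arrays against 13.83 and 13.81 on the deletion arrays. It rose 1.45-fold, by 0.53 ± 0.05 (adjusted p = 0.000275).

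Of the Golgi membrane proteins, 3 fell. The gene sft2 (chromosome I, 4344404 to 4345218), similar to a membrane protein of Golgi traffic in budding yeast, stood at 13.71 and 13.65 on the wild-type arrays against 12.64 and 12.82 on the deletion arrays. It fell 1.93-fold, by 0.95 ± 0.07 (adjusted p = 0.000186). A Golgi membrane protein on chromosome III (1450242 to 1451276) stood at 14.25 and 14.28 on the wild-type arrays against 13.34 and 13.48 on the deletion arrays. It fell 1.81-fold, by 0.85 ± 0.06 (adjusted p = 0.000147). A membrane protein-sorting protein of the Golgi (chromosome II, 3509098 to 3509713) fell by 0.54 ± 0.05. The remaining members were a transporter of UDP-N-acetylglucosamine (0.09 ± 0.08) and a peripheral membrane protein (0.05 ± 0.05), which did not pass, and a gene of Golgi glycosylation at 0.14 ± 0.05. The last passed with adjusted p = 0.0454, and that call was lost under 10 of its 15 alternatives, each array left out in turn among them.

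Of 8 clathrin genes, 2 rose (25%, against 34.0% of all array genes), 3 fell (37.5%, against 29.8%) and 3 did not pass. The heavy chain (chromosome I, 3331307 to 3336403), which forms the legs of the coat lattice, read 15.80 and 15.82 on the wild-type arrays against 15.83 and 15.82 on the deletion arrays (0.02 ± 0.05), near the top of the scale. The light chain (chromosome II, 1786241 to 1786930) read 15.19 and 15.32 on the wild-type arrays against 14.94 and 14.88 on the deletion arrays. It fell by 0.35 ± 0.06 (adjusted p = 0.00413), a call lost with the length trend removed (-0.15, adjusted p = 0.102).

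The adaptors of clathrin are complexes of large, medium and small chains that link the coat to cargo. A medium chain (chromosome II, 1869258 to 1870761) stood at 14.10 and 14.18 on the wild-type arrays against 14.65 and 14.68 on the deletion arrays. It rose 1.44-fold, by 0.53 ± 0.05 (adjusted p = 0.000416). A clathrin coat assembly protein of similar length (chromosome I, 414037 to 415473) rose by 0.47 ± 0.05. The AP47 homologue (chromosome II, 1178969 to 1180338) and a further assembly protein (chromosome II, 3191382 to 3193377) stood at 0.04 ± 0.06 and -0.07 ± 0.05 and did not pass.

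In the opposite direction, a short clathrin coat assembly protein (chromosome II, 2735563 to 2735994) had the lowest fold change of all members. It stood at 13.97 and 14.00 on the wild-type arrays against 12.78 and 12.99 on the deletion arrays, so that every deletion array lay far below every wild-type array. The fall was 2.14-fold, by 1.10 ± 0.08 on the log2 scale (adjusted p = 0.00014). The small subunit of a clathrin-associated complex (chromosome I, 1611695 to 1612293) fell by 0.38 ± 0.05.

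Of 21 vacuolar protein sorting genes, 10 rose (47.6%), 5 fell (23.8%, against 29.8% of all array genes) and 6 did not pass. The median log2 fold change was 0.17. The median length was 1864 bp, with a range from 642 to 9808 bp. All array genes rose in 34.0%, and those over 1200 bp in 47.5%. With the length trend removed 6 rose and 7 fell, and a membrane glycoprotein (chromosome II, 4296090 to 4300530) that had risen by 0.20 ± 0.05 passed as lower (-0.14, adjusted p = 0.0445). A vacuolar protein sorting-associated protein on chromosome I (731841 to 733649) gave 13.12 and 13.11 on the wild-type arrays against 14.04 and 13.95 on the deletion arrays. It rose 1.84-fold, by 0.88 ± 0.05 (adjusted p = 9.93e-05). A very long gene of the class (chromosome II, 4281299 to 4291106; 9808 bp) read 14.38 and 14.44 on the wild-type arrays against 15.25 and 15.21 on the deletion arrays. Its rise was 1.77-fold, by 0.82 ± 0.05 (adjusted p = 0.000101). On both genes the deletion arrays lay above the wild-type arrays by far more than the arrays of a group differed.

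Neighbouring genes of the class on chromosome II rose together. The first (3748464 to 3750266) read 13.52 and 13.54 on the wild-type arrays against 14.39 and 14.25 on the deletion arrays, a rise of 0.79 ± 0.06 (adjusted p = 0.000193). The second (3750171 to 3757781) is described as a homologue of budding yeast VPS13, which encodes a lipid transfer protein at membrane contacts. It read 14.23 and 14.27 on the wild-type arrays against 14.85 and 14.72 on the deletion arrays, a rise of 0.54 ± 0.06 (adjusted p = 0.000652). The annotated ends of the pair overlap by 96 bp. A Sec1 family gene (chromosome I, 822331 to 824194), of the proteins that guide SNARE assembly, rose by 0.49 ± 0.07, and the other rises of the class were between 0.20 and 0.31.

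Among the falls of this class, vps29 (chromosome I, 3719634 to 3720275) belongs by its similarity to the retromer, the coat that returns sorting receptors from endosomes to the Golgi. It stood at 13.99 and 13.89 on the wild-type arrays against 13.23 and 13.32 on the deletion arrays, and fell 1.59-fold, by 0.67 ± 0.06 (adjusted p = 0.000291). The array gene just to its right, a hypothetical protein at 3720687 to 3721205, went the other way, with a log2 fold change of 2.36. A sorting-associated protein (chromosome I, 4901891 to 4902637) measured 14.08 and 14.11 on the wild-type arrays against 13.32 and 13.50 on the deletion arrays, a fall of 0.69 ± 0.07 (adjusted p = 0.000451). A sorting protein on chromosome II (2904244 to 2906158), one of the few longer genes that fell, stood at 14.38 and 14.35 on the wild-type arrays against 13.66 and 13.76 on the deletion arrays. Its fall was 0.65 ± 0.06 (adjusted p = 0.000256), and both groups kept well apart. The other falls were 0.57 ± 0.06 (chromosome I, 2270404 to 2271396) and 0.35 ± 0.05 (chromosome II, 2667154 to 2668767).

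Of 17 SNAREs and genes described with them, 4 rose (23.5%, against 34.0% of all array genes), 8 fell (47.1%) and 5 did not pass. The median log2 fold change was -0.15. The median length was 855 bp, with a range from 330 to 2336 bp. All array genes fell in 29.8%, and those up to 1200 bp in 47.8%. With the length trend removed 5 rose and 7 fell, and the falls no longer held a V snare-like protein (chromosome I, 791711 to 792259). The lowest was a vesicle transport v-SNARE (chromosome II, 3964035 to 3965106), at 14.28 and 14.27 on the wild-type arrays against 13.53 and 13.70 on the deletion arrays. It fell 1.58-fold, by 0.66 ± 0.07 (adjusted p = 0.000454). A synaptobrevin-type protein (chromosome II, 2920746 to 2921610) fell by 0.62 ± 0.08 and a syntaxin-like subunit of a t-SNARE complex (chromosome I, 2581034 to 2581991) by 0.59 ± 0.06. The homologue of budding yeast Bos1, a v-SNARE between the endoplasmic reticulum and the Golgi, fell by 0.33 ± 0.06 (bos1, chromosome I, 1917264 to 1918094). The other 4 falls lay between -0.54 and -0.34.

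The highest SNARE was a t-SNARE described as a syntaxin homologue (chromosome II, 2352752 to 2353520). It stood at 13.99 and 14.19 on the wild-type arrays against 14.65 and 14.39 on the deletion arrays, a rise of 0.43 ± 0.11 (adjusted p = 0.0134). Its standard error was the largest of all 71 members, and with the second block alone adjusted p was 0.0695. A syntaxin on chromosome III (1028292 to 1029146) rose by 0.27 ± 0.05, with 15.19 on both wild-type arrays and 15.49 and 15.44 in the deletion. A v-SNARE binding protein with a UBA domain rose by 0.30 ± 0.06, a call lost with the length trend removed (0.14, adjusted p = 0.0737). The syntaxin binding protein sec1 rose by 0.20 ± 0.05, a call lost without wild_type replicate 1, without wild_type replicate 2, under quantile normalization, with the first block alone and with the length trend removed (-0.07). Synaptobrevin homologue 1 (0.12 ± 0.05), syntaxin 5 (-0.08 ± 0.05) and the vacuolar syntaxin (-0.15 ± 0.07) did not pass.

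The exocyst, which tethers secretory vesicles to the plasma membrane, held the highest member of all. A short array gene described as an exocyst complex protein (chromosome II, 337018 to 337886) stood at 12.73 and 12.78 on the wild-type arrays against 13.91 and 13.76 on the deletion arrays. It rose 2.11-fold, by 1.08 ± 0.06 (adjusted p = 8.72e-05), with no overlap. A filter on the dimmest 25% of array genes left this short array gene out. A longer array gene that begins at the same base (337018 to 339175), and so holds all of the short one, read 13.99 and 13.96 on the wild-type arrays against 14.07 and 14.09 on the deletion arrays. That is a difference of 0.11 ± 0.05 (adjusted p = 0.102). The other exocyst genes stood at 0.07 ± 0.06 (chromosome III, 196809 to 199316) and 0.06 ± 0.06 (chromosome I, 2173729 to 2176538), and neither passed. With the length trend removed both passed as lower, at -0.22 (adjusted p = 0.011) and -0.25 (adjusted p = 0.013).

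**Figure D2:**
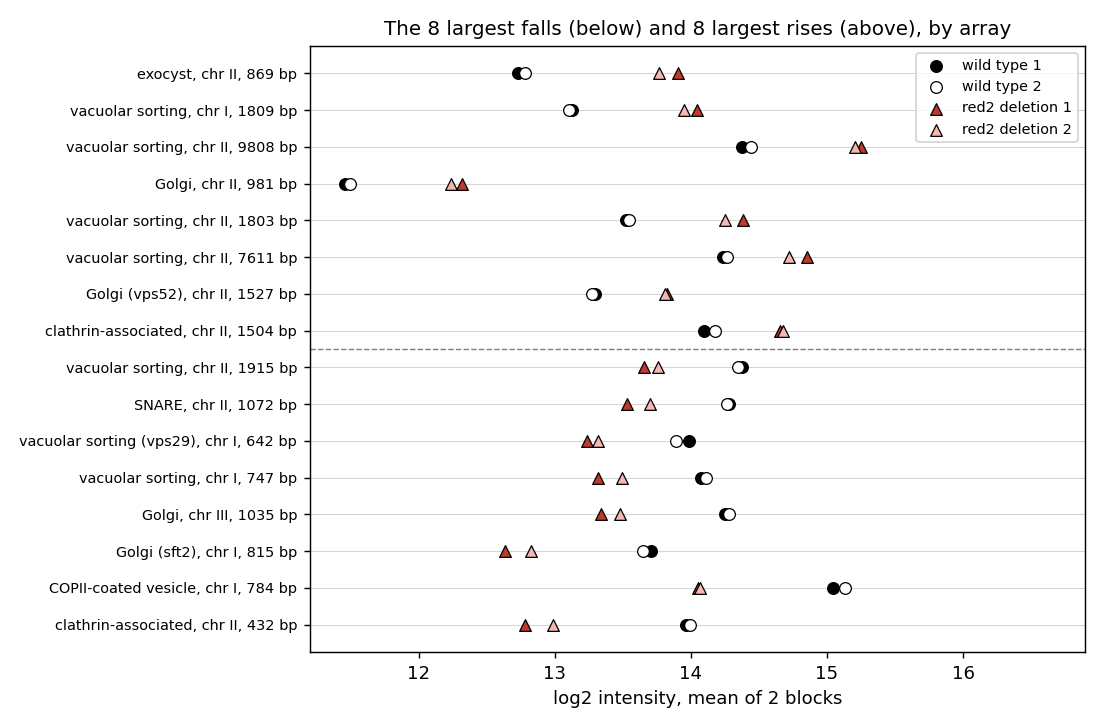
Log2 intensity (mean of 2 blocks, horizontal axis) on each of the 4 arrays for the 8 members that rose most, above the dashed line, and the 8 that fell most, below it. Circles are wild-type arrays and triangles deletion arrays. The 16 members were chosen among those that passed and whose groups do not overlap. The first deletion array lies farther from wild type than the second in 15 of the 16.

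The deletion arrays differed in how far they lay from wild type. For 15 of those 16 members deletion replicate 1 was farther from the wild-type mean than deletion replicate 2. The same held for 34 of the 46 members that passed (73.9%), close to the 68.5% of the 3186 array genes that passed. The share among the 16 extreme members, 93.8%, was higher, and no equally extreme set of all array genes was compared. Deletion replicate 2 is the array with the red3 label. Without it, 20 members rose and 25 fell, and without deletion replicate 1 the numbers were 19 and 25.

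Array genes that overlap each other differed in their readings. The short exocyst feature rose, as given above, and the long one that holds it did not pass. At the coatomer beta' gene the feature of 396 bp (4313646 to 4314041) stood at 15.85 and 15.86 on the wild-type arrays against 15.61 and 15.62 on the deletion arrays, a fall of 0.24 ± 0.05 (adjusted p = 0.00572), while the feature of 2453 bp did not pass. At a dynamin family gene of vacuolar sorting on chromosome I, where dynamins pinch membranes, the feature of 864 bp (1989417 to 1990280) rose by 0.23 ± 0.05. The overlapping feature of 1636 bp (1989869 to 1991504) stood at 0.05 ± 0.06. The difference within a pair was not tested. With only the longest feature of each overlapping set kept, 67 members were left, of which 18 rose and 24 fell.

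**Figure D3:**
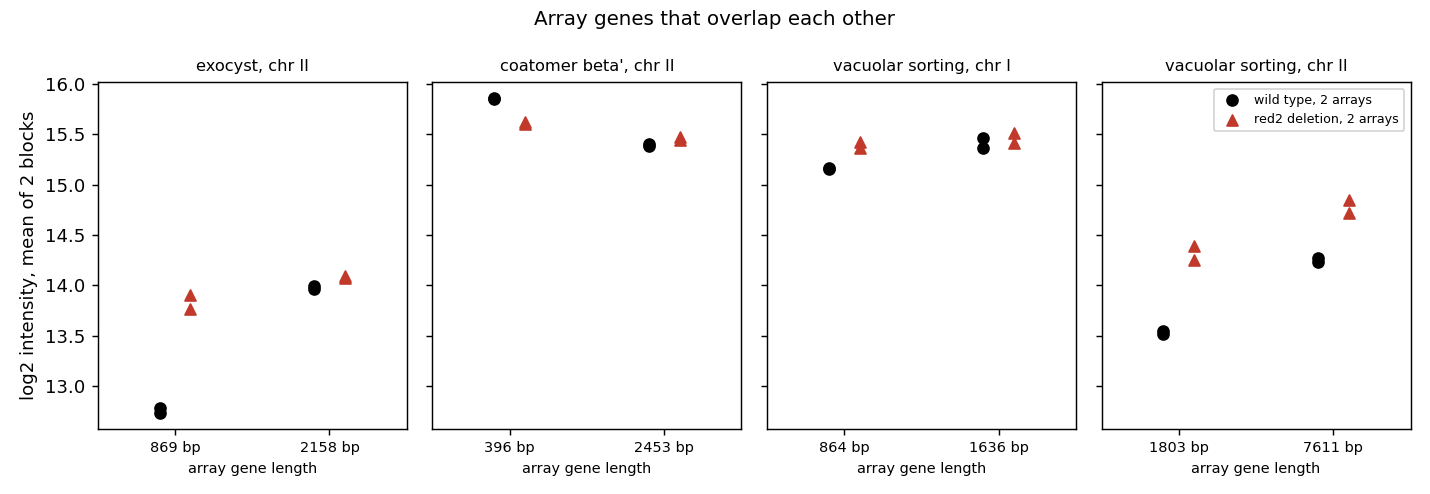
Log2 intensity (mean of 2 blocks) of 4 pairs of overlapping array genes, the shorter one left in each panel, with 2 wild-type arrays as circles and 2 deletion arrays as triangles. The short exocyst feature rose by 1.08 while the long one stood at 0.11, and the features of the vacuolar sorting pair on chromosome II rose by 0.79 and 0.54.

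Fold change went with gene length among the members as it did among all array genes. Over the 71 members Spearman's rho of log2 fold change with length, from start to end, was 0.501, and over all array genes 0.445; the points share their arrays, and genes are not independent replicates. Of 35 members up to 1200 bp, 6 rose and 22 fell, which is 17.1% and 62.9%. All array genes up to that length gave 20.7% and 47.8%. Of 36 longer members, 15 rose and 3 fell, which is 41.7% and 8.33%, against 47.5% and 11.4% of all array genes of that length. Members over 600 and up to 900 bp had a median log2 fold change of -0.34 and those over 2700 bp a median of 0.17, where all array genes of those lengths had -0.19 and 0.27.

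**Figure D4:**
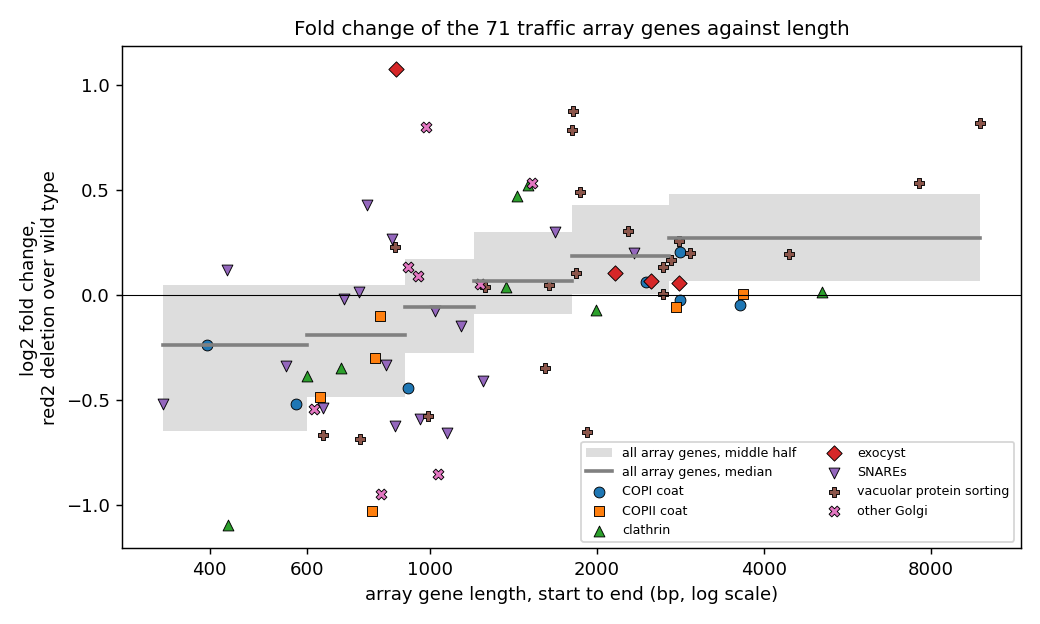
Log2 fold change (red2 deletion over wild type) of the 71 members against array gene length on a log scale, with a symbol for each class. The grey lines and boxes give the median and the interquartile range of all array genes in 6 length ranges, cut off at the ends of the members' range; short members lie mostly below 0 and long ones mostly at or above it.

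With the length trend of each array removed, 17 members rose, 33 fell and 21 did not pass, and the members' median was -0.14. All array genes then gave 28.6% higher and 35.2% lower, with a median of -0.04. In the coatomer 5 of 7 members fell and 0 rose, and the alpha and gamma subunits passed as lower (-0.37 and -0.33). In the COPII class 5 of 6 fell, with the Sec24 homologue at -0.37 and the WD repeat component at -0.32. The clathrin heavy chain passed as lower too (-0.32). These 5 genes did not pass before the trend was removed. All 5 had mean levels over 15.48, within 0.5 of the highest value on the arrays. Members at lower levels newly passed as lower too. These were coatomer beta' (-0.22), a clathrin coat assembly protein (chromosome II, 3191382 to 3193377, at -0.29) and a sorting gene (chromosome III, 1623608 to 1626236, at -0.29). The exocyst genes on chromosomes III and I did so as well. The one on chromosome I had group means of 12.65 in wild type and 12.71 in the deletion. Before the removal, the 6 members at mean levels over 15.48 had a median absolute log2 fold change of 0.03, against 0.34 for the other 65. Among all array genes these medians were 0.09 and 0.31. The part of length or level in the difference was not tested. Over all classes 22 members changed sign.

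The 8 members that rose most and the 8 that fell most kept their direction and their call with the trend removed. The short exocyst feature stood at 1.21 and the BET3 homologue on chromosome II at 0.87. The short clathrin coat assembly protein stood at -0.84, the COPII-coated vesicle component at -0.87 and sft2 at -0.80. The smallest value of the 16 was that of the VPS13 homologue, at 0.20 (adjusted p = 0.0215).

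Other genes of the pathway, taken by further words in the descriptions and leaving out all members, gave 93 array genes in 5 lists, some in more than one list. Of these, 27 rose (29.0%, against 34.0% of all array genes), 32 fell (34.4%, against 29.8%) and 34 did not pass, with a median log2 fold change of -0.03. With the length trend removed 18 rose and 41 fell. Among 21 traffic GTPases and their regulators, the switches that mark membranes, 7 rose (33.3%, against 34.0%) and 8 fell (38.1%, against 29.8%). An ADP-ribosylation factor-like protein (chromosome I, 707515 to 708292) read 12.86 and 12.93 on the wild-type arrays against 14.17 and 14.12 on the deletion arrays, a rise of 1.25 ± 0.05 (adjusted p = 4.13e-05). A TBC domain protein (chromosome I, 364124 to 366355), of the regulators that switch Rab GTPases off, rose by 0.33 ± 0.05, while Ypt1-related protein 1 fell by 0.49 ± 0.05 and an endocytic Rab protein by 0.41 ± 0.05.

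Of 15 adaptor and endocytosis genes, 8 rose (53.3%) and 3 fell (20%, against 29.8% of all array genes). The list had a median length of 2052 bp and a median log2 fold change of 0.27. All array genes rose in 34.0%, and those over 1200 bp in 47.5%, while the list runs from 753 to 3279 bp. With the length trend removed 6 of the list rose and 5 fell, with a median of 0.05. A homologue of budding yeast SLA2, which couples endocytic coats to actin, rose by 0.83 ± 0.06 and a beta-adaptin (chromosome II, 3403153 to 3405410), a large adaptor chain, by 0.62 ± 0.06. A gene described as a beta-adaptin of clathrin assembly (chromosome I, 2495148 to 2497435) fell by 0.30 ± 0.05, beside the endocytic Rab protein, which is in both lists. By its words the list also took a transcription factor similar to AP-1, which is no adaptor.

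Of 14 genes of entry into the endoplasmic reticulum 1 rose and 7 fell (50%, median -0.21), and of 14 genes of the vacuolar proton pump, the vacuolar ATPase, 1 rose and 9 fell (64.3%, median -0.34). All array genes fell in 29.8%, and those up to 1200 bp in 47.8%. The 1 rise was 7.14% of each list, against 34.0% of all array genes. The lists also hold longer genes, up to 2049 bp for entry and 2471 bp for the ATPase. A signal recognition particle subunit (chromosome I, 2008547 to 2009103) fell by 0.89 ± 0.05 and a Sec61 beta-like translocon subunit by 0.85 ± 0.06. The 54 kd protein of the signal recognition particle (chromosome III, 1486987 to 1489035) rose by 0.47 ± 0.06, and another protein of the particle (chromosome III, 146210 to 148128) stood at 0.10 ± 0.06 and did not pass. Subunit F of the vacuolar ATPase (chromosome II, 3980280 to 3980700) read 13.81 and 13.79 on the wild-type arrays against 12.23 and 12.48 on the deletion arrays, a fall of 1.44 ± 0.09 (adjusted p = 8.62e-05). A gene described both as V-type ATPase and as a mitochondrial ATP synthase chain fell by 0.90 ± 0.06. Subunit D rose by 0.22 ± 0.05, and subunit b stood at 0.03 ± 0.05. Both lists hold short genes, with a median length of 692.5 bp for entry and 881 bp for the ATPase against 1194 bp for all array genes, and with the length trend removed 2 rose and 7 fell for entry and 1 rose and 11 fell for the ATPase.

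The last list, of 38 genes with other words for vesicle transport, had 11 rises and 9 falls. These were 28.95% and 23.68%, against 34.0% and 29.8% of all array genes. A gene with a C2 domain, a membrane-binding fold, described as a synaptic vesicle protein (chromosome III, 533322 to 536888), read 12.75 and 12.87 on the wild-type arrays against 14.11 and 14.10 on the deletion arrays, a rise of 1.29 ± 0.06 (adjusted p = 4.88e-05). An exchange factor with a Sec7 domain, which activates ARF GTPases, rose by 0.68 ± 0.05 (chromosome II, 3834530 to 3838918). The homologue of budding yeast Erv14, a cargo receptor of COPII vesicles, fell by 1.16 ± 0.06 (chromosome I, 4601117 to 4601678), and the Sec61 beta-like subunit named above is in this list as well. The split of this list moved with the scaling, to 14 falls with each array centred on its median and to 7 rises and 16 falls with the length trend removed. Falls among all array genes went from 1487 to 1788 with the centring. With the length trend removed, 28.6% of all array genes rose and 35.2% fell.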

How the data were processed

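Total RNA of 2 wild-type and 2 red2 deletion arrays was analysed. The authors deposited intensity on a linear scale; RMA is named in the submitters' processing notes without a version. The sources used here do not say how mismatch probes and background were handled. The deposited tables pair a deletion with a wild-type array and give their ratio, which equalled the quotient of the intensities to within 1e-06. All 9994 lines of each array were equal in the matrix and the pair tables. The 2 blocks per gene, whose meaning is not given, differed by a median of 0.09 to 0.10 and were averaged as log2. Groups follow the sample titles. Coordinates are as deposited, with the build not given in the sources used here.

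Genotype was tested with lmFit and eBayes of limma 3.58.1 in R 4.3.3 on all 4997 genes with no other term, filter or pseudocount; ± is limma's standard error. The fit was checked on simulated data. Symbols of 7 members come from words in the descriptions that match RefSeq names (ASM294v3) on the same chromosome at an offset shared with nearby matches. Named are the 8 largest rises and falls without overlap, the extremes of each class, all coatomer and exocyst genes and up to 2 genes per list and direction; other members were added after their values were seen. The neighbouring lists were taken by words in the descriptions, and "rab" on its own was added to them later. Members and lists were chosen with earlier results of these data known. Removing the length trend meant subtracting, per array, a loess curve (span 0.5) on log2 length fitted to the differences from each gene's mean. Replicate numbers come from the titles only, and deviations of the arrays numbered 1 correlated with r = -0.041 across genes, so they were not taken as pairs. Sequences were not used here.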

Additional observations from a re-analysis of the deposited data

How the results depend on the processing

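The alternatives were quantile normalization, centring, a filter on the dimmest 25% of genes (61 members left), 32 added before log2, the deposited ratios, the replicate block, each array left out, the length trend removed, either block alone, an intensity trend in eBayes, stricter thresholds and the longest of overlapping genes. The counts of members that rose (21) and fell (25) stayed within 1.5 times under all of them but the 1.5-fold minimum, which gave 5 and 10. With the replicate block, 20 rose and 25 fell. The deposited ratios had to give the same numbers, because both settings fit the same pairs and are 1 test in 2 forms. They are counted apart among the 15 refitted alternatives below. With each array left out in turn, 15 to 20 rose and 25 fell; a group left with 1 array takes its spread from the other group. The members' median went from 0.02 to -0.039 with arrays centred and to -0.138 with the length trend removed, and lay between -0.0168 and 0.0137 with an array left out. Of the 46 members called, 33 (11 higher, 22 lower) kept call and direction under every one of the 15 refitted alternatives they entered, and 18 of the other 25 passed under at least 1.

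With the length trend removed, 7 of the 28 members named by rule changed sign. Coatomer beta' (-0.221, limma adjusted p = 0.0075) and the WD repeat COPII component (-0.322, 0.00161) then passed as lower. So did the exocyst genes on chromosome III (-0.223, 0.011) and chromosome I (-0.252, 0.013). Coatomer beta (-0.106, 0.103), the short beta' feature (0.0129, 0.83) and the long exocyst gene on chromosome II (-0.137, 0.0502) did not pass. The cause of the sign changes was not tested. Classes and lists were recomputed under 3 scalings chosen after the data were seen. Signal over background is not known here; the members' lowest mean level was 11.88, and 6 members lie near the top of the scale.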
